A study of Drosophila pseudoobscura and Drosophila ananassae and Drosophila yakuba with 13 samples.

Results

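RpS18, RpL32, Cyp1 and Hsp83 are abundantly expressed genes of the kind used as internal references when expression is compared between tissues, and their expression was compared here between testis and ovary of Drosophila. They were taken as the rows carrying these symbols in the authors' deposited tables for D. ananassae and D. pseudoobscura, which gave 4 rows of 23522. RpS18 was listed by symbol for D. ananassae, among 11576 genes, and RpL32, Cyp1 and Hsp83 for D. pseudoobscura, among 11946. No member was listed by symbol in both tables, so none could be followed between species.

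RpS18 and RpL32 encode proteins of the small and the large subunit of the cytosolic ribosome, the particle that translates mRNA. RpL32, also known as rp49, is a customary reference gene for quantitative PCR in D. melanogaster. Cyp1 encodes a cyclophilin, an enzyme that turns proline bonds in folding proteins, and Hsp83 encodes the fly Hsp90, an ATP-driven chaperone of kinases, receptors and other client proteins. In the fly ovary, nurse cells make ribosomes and mRNA that are passed to the egg, and in D. melanogaster the Hsp83 transcript is among those supplied to the embryo by the mother. In the testis most of the tissue is spermatocytes and differentiating spermatids. A gene serves as a reference between such tissues when its level differs little between them and varies little between replicates.

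The D. ananassae comparison set 2 testis libraries against 2 ovary libraries of wild-type strain 14024-0371.13, grown at 25 °C, and the D. pseudoobscura comparison set 2 testis libraries against 3 ovary libraries of wild-type strain 14011-0121.94, grown at 20 °C. All flies were virgin adults 6 to 10 days old and free of Wolbachia, ducts had been removed from the gonads, and polyadenylated RNA was sequenced as single reads of 50 bases. The 4 libraries of D. yakuba (1 of testis, 3 of ovary) were not analysed here. The tables hold 1 fold, 1 average expression and 1 test per gene and no values per library, so the depth behind each value is unknown and the spread over replicates cannot be given. Positive log2 folds are taken to mean more transcript in testis, because the tables' title puts that tissue ahead of ovary. Under that reading the testis thioredoxin gene TrxT stood at 4.56 for D. ananassae and 5.89 for D. pseudoobscura in the authors' deposited tables. The ovary genes stood at -3.56 (nos, D. ananassae), -17.3 (dhd) and -9.82 (bcd, both D. pseudoobscura) there. These genes were used to read the direction and are no independent support for it. The labels do not say whether libraries came from separate dissections, so the authors' p-values may measure technical spread. How the authors scaled the libraries is not given, and their column of average expression does not sum as its heading says, so the zero of the deposited folds is uncertain. Every deposited fold, the testis levels as percent of ovary, the calls and the counts above or below the deposited zero rest on that zero. Point differences in fold between genes of a table do not. The approximate errors used below do rest on it, and so do the intervals and tests of such differences. In tissue samples fewer cells of a type and less RNA per cell cannot be told apart.

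Of the ribosomal protein genes, RpS18 was far lower in testis of D. ananassae. Its log2 fold was -4.18 in the authors' deposited table, with an approximate standard error of 0.29 and a 95% interval of -4.75 to -3.61. The error was derived from the fold and the authors' likelihood-ratio statistic. On a linear scale the testis level was 5.52% of the ovary level, with an interval of 3.72% to 8.19%. The adjusted p in the authors' deposited table, from edgeR's likelihood-ratio test, was 4.58e-46, and the call held under Bonferroni adjustment, as did those of 69.8% of all genes. At an adjusted p under 0.05, 85.4% of all genes of the table were called and 53.8% were called as lower in testis, so the call alone does not set RpS18 apart. Its fold was lower than that of 87.0% of the genes.

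RpL32 was lower in testis of D. pseudoobscura by a smaller amount, with a log2 fold of -2.45 in the authors' deposited table, an approximate error of 0.66 and an interval of -3.74 to -1.15. The testis level was 18.4% of the ovary level (interval 7.48% to 45.1%). Its adjusted p in the authors' deposited table, from the same edgeR test, was 0.00038. The call was lost under Bonferroni adjustment over the table, which 50.1% of all genes passed. In this species 73.7% of all genes were called and 44.1% were called as lower in testis. The RpS18 and RpL32 values come from different genes, species and growth temperatures and from tables adjusted apart, so their difference was not tested.

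Cyp1, the cyclophilin gene, was lower in testis of D. pseudoobscura with a log2 fold of -3.96 in the authors' deposited table, an approximate error of 0.72 and an interval of -5.37 to -2.55. The testis level was 6.44% of the ovary level (interval 2.43% to 17.1%), and the adjusted p of the edgeR test in the authors' deposited table was 8.15e-08. Hsp83, the chaperone gene, was the one member not called. Its log2 fold was -0.45 in the authors' deposited table, with an approximate error of 0.61 and an interval of -1.63 to 0.74, and its adjusted p from their edgeR test was 0.509. The testis level of Hsp83 was 73.4% of the ovary level, and the interval ran from 32.2% to 167%. Differences of over 2-fold towards ovary therefore lie within the error, and the missed threshold does not show that Hsp83 is steady.

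**Figure D1:**
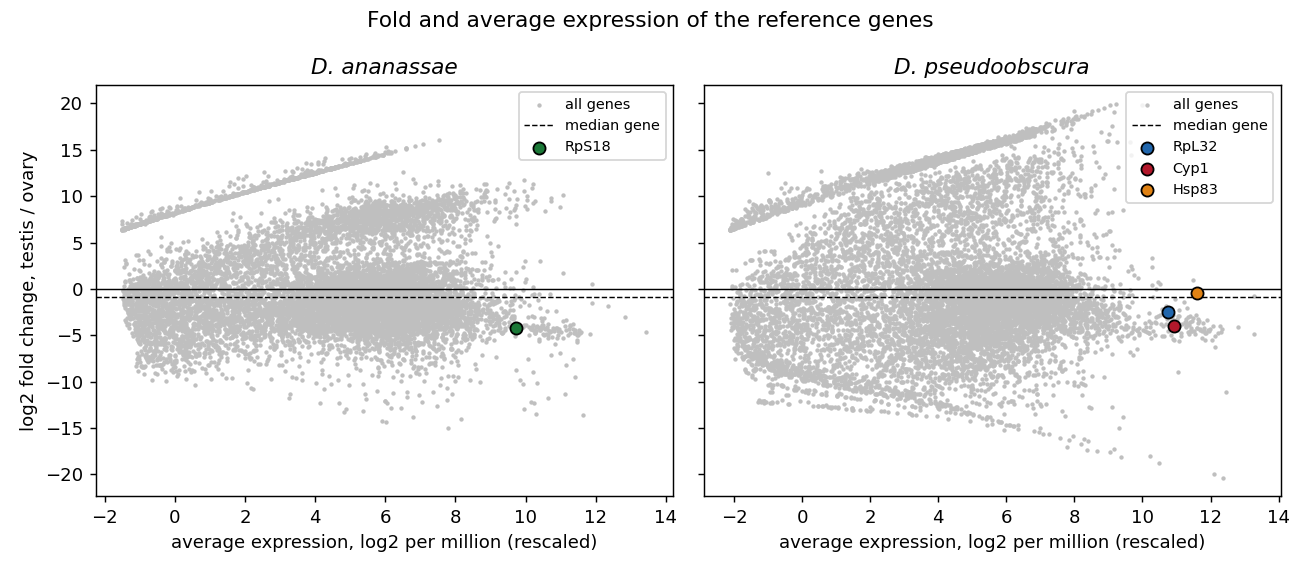
Log2 fold of testis over ovary against rescaled log2 average expression for all genes of each table (grey), with RpS18, RpL32, Cyp1 and Hsp83 as coloured points, a solid line at the deposited zero and a dashed line at the median gene (-0.93 and -0.85). The members lie at the right, where most genes fall below both lines, and Hsp83 at -0.45 stands above most genes of its abundance.

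All 4 members were among the genes that take the most reads. After rescaling each table to a total of 1000000, RpS18 averaged 9.72 on the log2 scale (rank 152 of its table), RpL32 10.7 (rank 83), Cyp1 10.9 (rank 74) and Hsp83 11.6 (rank 34). These averages are shares of reads and were not divided by transcript length, so they do not order the genes by transcript number.

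The folds were next read against the table's median gene, which stood at -0.93 (D. ananassae) and -0.85 (D. pseudoobscura). Relative to it RpS18 was at -3.25 (interval -3.82 to -2.68), RpL32 at -1.60 (-2.89 to -0.30) and Cyp1 at -3.11 (-4.52 to -1.70). Hsp83 was at 0.40 (-0.79 to 1.59), so its direction changed with the zero. In an approximate normal test derived from the edgeR statistic and adjusted over all genes, the adjusted p was 1.8e-28 for RpS18, 0.0234 for RpL32, 3e-05 for Cyp1 and 0.562 for Hsp83. Against the median gene 82.4% of genes in D. ananassae were called, 40.7% as higher and 41.8% as lower in testis, and 70.8% in D. pseudoobscura, 35.7% as higher and 35.1% as lower. At the deposited zero the shares called as higher in testis were 31.7% and 29.6%.

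Abundant genes leaned further towards ovary than the median gene did. Among genes with a rescaled log2 average of at least 8, the median fold was -2.10 over 659 genes in D. ananassae and -2.77 over 559 genes in D. pseudoobscura. Among the 200 genes nearest to each member in average expression, the median fold was -2.55 for RpS18, -3.74 for RpL32, -3.75 for Cyp1 and -3.77 for Hsp83, and between 70.0% and 83.0% of these genes were called as lower in testis. The 3 sets of neighbours in D. pseudoobscura overlap and reach down to a log2 average of 9.14, so they are not separate standards. Set against these neighbours, RpS18 differed by -1.63 on the log2 scale and lay above 41 of the 200. RpL32 was higher by 1.29 and above 147, Cyp1 differed by -0.21 and was above 91, and Hsp83 was higher by 3.33 and above 172. The set for Hsp83 was lopsided, with 167 genes less abundant than Hsp83 and 33 more abundant.

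A narrower set of the 50 nearest genes, chosen after the values were seen, gave differences of -2.54 for RpS18, 1.21 for RpL32, -0.21 for Cyp1 and 3.70 for Hsp83. Hsp83 lay above 49 of its 50 nearest genes, whose median fold was -4.15. Of the 3 members in D. pseudoobscura, the one with the value nearest to 0 thus depended on the zero chosen. It was Hsp83 at the deposited zero and against the median gene. Hsp83 was also nearest against the mode of the folds (0.33), the mean weighted by average expression (0.78) and the median of uncalled genes (-0.28). The nearest was Cyp1 against the 50 or 200 genes nearest in abundance. Against the median of the 10% most abundant genes it was RpL32 at -0.66, with Hsp83 at 1.34 and Cyp1 at -2.17.

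**Figure D2:**
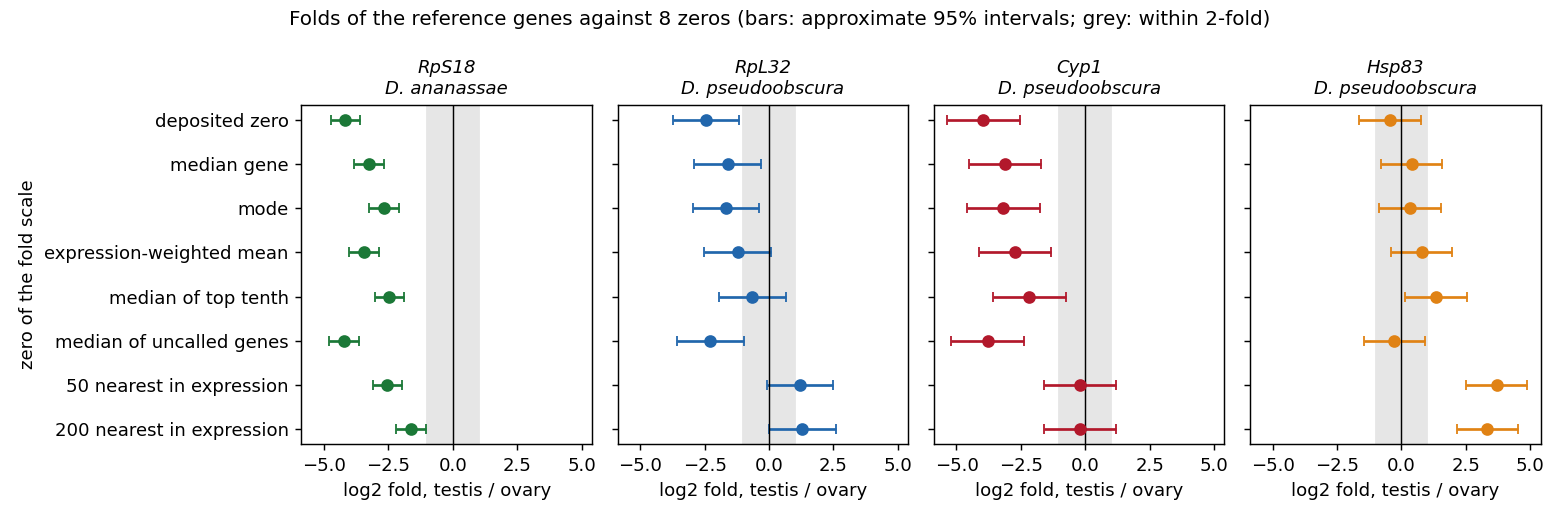
Log2 fold of testis over ovary for each member (points) with approximate 95% intervals (bars) against 8 choices of zero, from the deposited zero to the 50 and 200 genes nearest in average expression, and grey shading for less than 2-fold. RpS18 lies left of 0 for every zero drawn, RpL32 moves from -2.45 to 1.29, Cyp1 from -3.96 to -0.21 and Hsp83 from -0.45 to 3.70.

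What each member would do as the sole reference was read from its place among all genes. Dividing by RpS18 would add 4.18 to every log2 fold of D. ananassae. The share of genes above 0, that is higher in testis, would be 87.0%, against 39.4% as deposited, and 4722 of the 6226 genes called as lower in testis (75.8%) would change sign. In D. pseudoobscura 41.1% of genes were above 0 as deposited. The share would be 66.2% with RpL32, 76.4% with Cyp1 and 45.6% with Hsp83. Of the 5269 genes called as lower in testis, 1257 (23.9%) would change sign with RpL32 and 2454 (46.6%) with Cyp1. With Hsp83, 540 uncalled genes (4.52% of the table) would change sign and no called gene would. That absence was fixed beforehand, because every called gene of this species differed by at least 2-fold and the shift is only 0.45. All these numbers are counts of point values and carry no test.

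**Figure D3:**
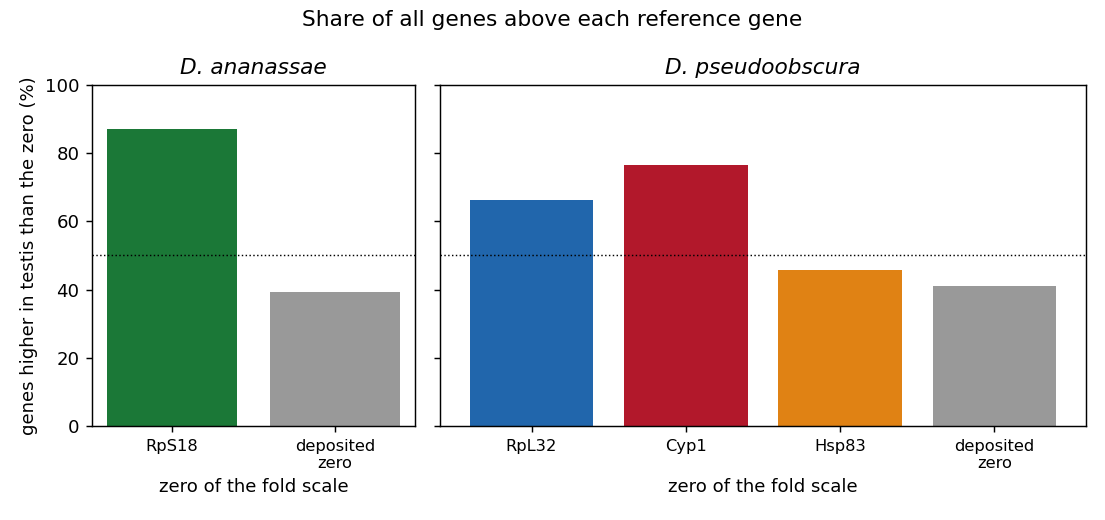
Percent of all genes whose testis over ovary fold lies above that of each member, and above the deposited zero (grey), with a dotted line at 50%. RpS18 leaves 87.0% of D. ananassae genes above it, and in D. pseudoobscura the shares are 66.2% for RpL32, 76.4% for Cyp1 and 45.6% for Hsp83.

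The point values of the 3 members of D. pseudoobscura also differed from one another, though not every difference exceeded its error. RpL32 minus Hsp83 was -2.00 on the log2 scale, with an approximate interval of -3.76 to -0.24, and Cyp1 minus Hsp83 was -3.51 (-5.35 to -1.67). Cyp1 minus RpL32 was -1.51, with an interval of -3.43 to 0.40 that includes 0. These intervals take the errors of a pair as independent, which could not be checked without values per library. They were not adjusted for the 3 pairs. The mean log2 fold of the 3 genes, as used when several references are combined, was -2.28, or -1.44 relative to the median gene, and 64.7% of genes lay above it. The pair nearest to the median gene was RpL32 with Hsp83, at -0.60 relative to it.

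The approximate errors followed the fold and hardly differed between genes. In each table, abundant genes of moderate fold lay on a single curve of error against fold. In D. pseudoobscura the 58 abundant genes with an absolute log2 fold below 1 had errors of 0.591 to 0.618, and the 38 abundant genes within 0.25 of the fold of RpL32 had errors of 0.653 to 0.670, against 0.661 for RpL32. In D. ananassae the 58 abundant genes within 0.25 of the fold of RpS18 had errors of 0.287 to 0.295, against 0.291 for RpS18. Whether a member varied less between libraries than other genes, which a reference gene should, can therefore not be read from these tables. For the same reason the intervals and p-values given for a member do not show that gene's own spread between libraries.

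**Figure D4:**
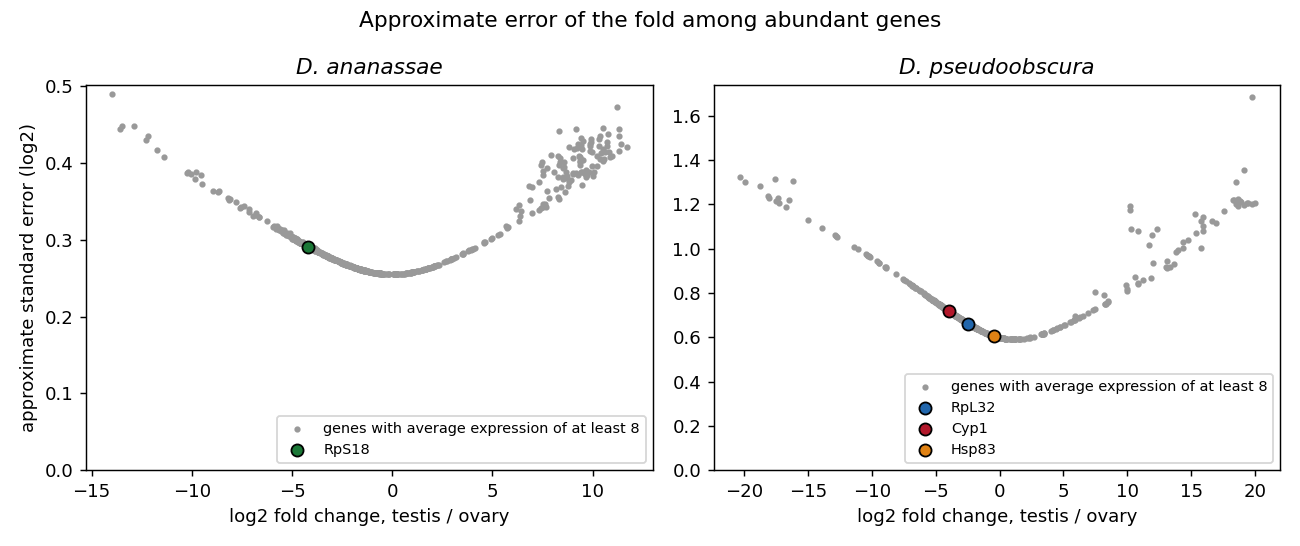
Approximate standard error of the log2 fold against the fold of testis over ovary for genes with a rescaled log2 average of at least 8 (grey), 659 in D. ananassae and 559 in D. pseudoobscura, with the members as coloured points. The genes with moderate folds form a single curve and the members lie on it, at 0.29 for RpS18, 0.66 for RpL32, 0.72 for Cyp1 and 0.61 for Hsp83.

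The error also limited what any gene could show. The smallest error in the D. pseudoobscura table gave a 95% interval of 1.16 to either side on the log2 scale, wider than a 2-fold difference. None of the 11946 genes therefore had an interval within 2-fold of the deposited zero, although 2246 had a point value there. In D. ananassae 978 of 11576 genes (8.45%) had such an interval as deposited and 1263 (10.9%) relative to the median gene. Among the 659 abundant genes these numbers were 26 and 58. RpS18 was not among them. Of the 5 abundant genes of D. ananassae nearest to the deposited zero, the first was GF17527 at 0.05 in the authors' deposited table (interval -0.45 to 0.55), and the files pair none of the 5 with a name. In D. pseudoobscura those 5 included hyd, a ubiquitin ligase gene, at -0.05 in the authors' deposited table (interval -1.22 to 1.13). An 18S ribosomal RNA gene, at -0.02 in the authors' deposited table, was also among them. An 18S ribosomal RNA gene listed for D. ananassae stood at 2.26 in the authors' deposited table. Its adjusted p there, from their edgeR test, was 5.49e-17. Both tables come from libraries selected for polyadenylated RNA.

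Of the 25 symbols of customary reference genes listed, 1 was present by symbol in D. ananassae, RpS18, and 4 in D. pseudoobscura. The fourth was Gapdh2, which encodes the glycolytic enzyme glyceraldehyde-3-phosphate dehydrogenase. It stood at -4.49 in the authors' deposited table, with an adjusted p of 3.16e-09 in their edgeR test and -3.64 relative to the median gene. Of these 4 genes 3 were called as lower in testis, 0 as higher and 1 was not called, with a median of -3.20 against -0.85 over all genes. The median of the 200 genes nearest in average expression was -3.74 for RpL32, -3.75 for Cyp1 and -3.77 for Hsp83. Since 3 of the 4 are the members themselves, only Gapdh2 adds a value. Over all genes of the species 73.7% were called in either direction, and 3 calls in 4 genes are near that rate. The share called as lower in testis was 44.1% over all genes. Among the 200 genes nearest in average expression it was 82% for RpL32 and 83% for Hsp83. Whether 3 in 4 differs from these shares was not tested, and 4 genes are few. The lists of ribosomal proteins, chaperones and cyclophilins had 1 measured member each in D. pseudoobscura, RpL32, Hsp83 and Cyp1. In D. ananassae the counts were 1, 0 and 0, the measured gene being RpS18. Other members may be present under identifiers that the files do not pair with names. Other housekeeping genes, chosen after their values were seen, were read beside them. RpII215, the largest subunit of RNA polymerase II, stood at -3.76, the glycolytic genes Eno at -1.89 and Tpi at -0.56 in D. pseudoobscura, and the glycerol-3-phosphate dehydrogenase gene Gpdh at -3.56 in D. ananassae, in the authors' deposited tables. Of these 4, Tpi was not called (adjusted p = 0.401 in the authors' edgeR test), and Eno lost its call relative to the median gene (adjusted p = 0.137 in the approximate test derived from the edgeR statistic).

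Among named genes within 2 log2 units of a member's average expression, likeness was measured as the gap in fold within the 1 table. Nearest to Cyp1 was Gapdh2, with a gap of 0.53 among 10 genes. Nearest to RpL32 was ATPsyn-beta, a subunit of mitochondrial ATP synthase, at -2.79 in the authors' deposited table, a gap of 0.34 among 11 genes. Nearest to Hsp83 was the 18S ribosomal RNA gene, a gap of 0.42 among 7 genes, in libraries selected for polyadenylated RNA. Only 4 named genes of D. ananassae were within reach of RpS18, and the nearest, nos, a translational repressor of the germline, differed by 0.61.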

How the data were processed

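Per the submitters' processing notes, the tools were edgeR, HTSeq 0.5.4p3, and Bowtie2, Cuffdiff and Cufflinks, each at 2.1.0. How counts were filtered, normalized and assigned to strand, and on which build and annotation, is not given in the sources used here. Per the file headers, each gene has deposited log2 values of its fold and its average expression, a likelihood-ratio statistic, the p-value and its false discovery rate (adjusted p). As a score deposited by the authors, the statistic was checked first, and its chi-square tail with 1 degree of freedom equalled the deposited p-value within 0.495%. The column of average expression, headed as log CPM by the authors, summed to 6.69e+06 and 8.09e+06 times the total of CPM and was scaled to sum to 1000000 in either table. The folds were not rescaled, and whether their normalization is affected was not tested.

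The approximate standard error of a fold was its absolute value divided by the square root of the statistic, and intervals are 95% normal intervals. Folds relative to another zero were tested two-sided with this error, the zero taken as fixed, with Benjamini-Hochberg adjustment over all genes. The arithmetic was checked on simulated data. Every simulated gene had the same spread and most had the same fold, unlike the genes here. That check therefore does not show how the tests perform on these data. Intervals cover what the authors' model counts as error, and reads shared with near-identical gene copies could not be checked. Alternatives were other thresholds, a minimum of 2-fold, an expression filter and other zeros.

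The members and lists were chosen with earlier results of these data known. Named genes were the members, the measured members of 4 lists and the 5 abundant genes nearest to each zero (2 identifiers at most printed). The 3 named genes most like each member were also taken, of which the nearest is printed. For RpS18 the 18S ribosomal RNA gene of D. ananassae is printed as well. Symbols of the D. pseudoobscura table were compared with RefSeq assembly UCI_Dpse_MV25, where 143 of 260 names, RNA genes included, were found. Software was matplotlib 3.10.9, pandas 2.3.3, numpy 2.4.6 and scipy 1.17.1 under Python 3.11.15.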

Additional observations from a re-analysis of the deposited data

How the results depend on the processing

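Of 52 member values under alternatives, 42 kept their call, or lack of one, and did not reverse a call. All 13 values of RpS18 kept theirs. Some of the 52 outcomes were fixed beforehand, so these counts are no measure of stability. Hsp83, not called, had to stay so under stricter thresholds. The deposited calls of RpS18, RpL32 and Cyp1 already met the stricter adjusted p and the minimum of 2-fold. The median gene as an alternative zero repeated values given above. The deposited fold of RpL32 (-2.45) lost its call under Bonferroni adjustment, at -1.21 against the expression-weighted mean and at -0.66 against the median of the 10% most abundant genes (adjusted p = 0.0898 and 0.374, approximate test from the edgeR statistic). Leaving out Bonferroni adjustment, the adjusted p over its alternatives ran from 0.00038 (edgeR test) to 0.374 (approximate test). Hsp83 was called as higher in testis, at 1.34, against the median of the 10% most abundant genes (adjusted p = 0.0378, approximate test). Over all zeros tried for Hsp83, the highest adjusted p in that test was 0.684, against the median of uncalled genes. Relative to the 200 nearest genes and the 50 nearest, the second added after the data were seen, RpL32 changed sign to 1.29 and 1.21 and was not called, Cyp1 at -0.21 in both lost its call, and Hsp83 at 3.33 and 3.70 was called. The cause was not tested. Uncalled values of Hsp83 lay on either side of 0, between -0.45 and 0.78. With 1 shared error for abundant genes, also added later, no call of a member changed. That error was 0.256 in D. ananassae and 0.599 in D. pseudoobscura, smaller than the error of each member. A call could thus hardly be lost, and this alternative is no support for the calls.

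Counts of all called genes changed by over 1.5 times in 11 of 32 alternatives. With only genes averaging at least 5, 1858 were called as higher and 3328 as lower in testis in D. ananassae, and 1373 and 2464 in D. pseudoobscura, because fewer genes were tested. Against the median of the 10% most abundant genes the counts were 5836 and 3664, and 5329 and 3264. Against the mode they were 5520 and 3936 in D. ananassae. Bonferroni adjustment left 3279 called as lower in D. pseudoobscura. No paired analysis was possible because the tables hold no values per library, and leaving out a replicate was not run for the same reason.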
